A study of Mus musculus with 6 samples.

Results

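Secretory IgA and the plasma cells that make it were followed in the parotid gland through 7 genes, chosen by symbol from the 52636 genes listed for each library. They are the constant genes Igha, Ighm and Igkc, the joining chain gene Jchain, the plasma cell genes Mzb1 and Tnfrsf17, and Pigr, the epithelial transporter. The selection was made with results of the irradiated and untreated comparison already known, so fold changes of these 7 genes are given as a description, and calls among them are counted beside those of all genes with nothing read from them. RNA-seq libraries came from 3 irradiated samples, whose mice received 5 Gy as 1 dose, and 3 untreated samples. The tissue was the parotid salivary gland of FVB mice, a strain inbred for laboratory use, and the mice were 28 days old. The labels attach the dose text to every sample, and it was applied to the irradiated group alone. Nothing in them ties samples to separate mice, and the errors therefore measure the spread between these samples, which may be technical. The interval between radiation and collection was not given in the sources used here.

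In salivary glands, plasma cells in the tissue around acini and ducts secrete IgA as dimers held together by the J chain. The polymeric immunoglobulin receptor, encoded by Pigr, binds the J chain at the basal side of the epithelium, carries the dimer across the cell and is cleaved at the lumen, so that secretory IgA enters saliva. Naive B cells carry IgM and IgD on their surface, and switching to IgA replaces the constant region of the heavy chain while the variable region is kept. Because the RNA came from whole tissue, fewer cells of a type and less RNA per cell cannot be told apart.

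Counts in genes totalled 14454646, 7108359 and 12127162 in irradiated replicates 1, 2 and 3, against 12787135, 12722189 and 15036193 in untreated replicates 1, 2 and 3. Irradiated replicate 2 stood apart in its read statistics, where 10.01% of reads were unaligned, while the other libraries had 3.75% to 4.33%. It also held 184 reads set aside for low alignment quality, against 342749 to 491591 in the others. Levels are given as CPM, that is, counts relative to the library's total after TMM scaling, and 3 counts correspond to 0.199 to 0.360 CPM, depending on the library. Amylase Amy1 and the salivary protein Bpifa2, both defining products of acinar cells, had at least 751560 and 2135860 counts in every library.

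Igha (ENSMUSG00000095079; chromosome 12, 113254830 to 113260236, minus strand, build mm10) encodes the constant region of the IgA heavy chain. It had 1.46, 1.20 and 3.79 CPM in irradiated replicates 1, 2 and 3, from 22, 10 and 44 counts. The untreated libraries had 18.2, 1.40 and 2.66 CPM, from 222, 16 and 40 counts. The groups overlapped, and untreated replicate 1 alone stood far above the other 5 libraries, at 6.85 times the next untreated library. The means were 2.15 ± 1.43 CPM in irradiated glands and 7.43 ± 9.38 CPM in untreated glands (SD, n = 3 each). The log2 fold change, irradiated over untreated, was -1.76 (SE 1.26) with all libraries and 0.08 (SE 0.50) without untreated replicate 1.

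Jchain (ENSMUSG00000067149; chromosome 5, 88519809 to 88527891, minus strand), which links IgA into dimers and IgM into pentamers, had the same library on top. It stood at 0.864, 1.20 and 1.21 CPM in the irradiated libraries, from 13, 10 and 14 counts. In untreated replicates 1, 2 and 3 it stood at 7.23, 0.960 and 0.333 CPM, from 88, 11 and 5 counts. Untreated replicate 1 was 7.53 times the next untreated library, while untreated replicate 2 lay within the irradiated range and untreated replicate 3 below it. The log2 fold change was -1.38 (SE 1.24), and it turned to 0.77 (SE 0.66) without untreated replicate 1.

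Igkc (ENSMUSG00000076609; chromosome 6, 70726435 to 70726966, plus strand) encodes the constant region of the kappa light chain, shared by all antibody classes. Its levels were 9.97, 11.04 and 11.98 CPM in the irradiated libraries, against 22.1, 2.36 and 4.33 CPM in the untreated ones. The irradiated libraries lay close together, and the untreated libraries lay on both sides of them. The log2 fold change was 0.20 (SE 0.92), 1.68 (SE 0.25) without untreated replicate 1, -0.25 (SE 0.81) without untreated replicate 2 and -0.17 (SE 1.00) without untreated replicate 3.

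Ighm (ENSMUSG00000076617; chromosome 12, 113418558 to 113422730, minus strand) encodes the constant region of IgM, present in naive B cells as well as in IgM plasma cells. It stood at 27.9, 23.6 and 26.3 CPM in irradiated replicates 1, 2 and 3, from 420, 197 and 305 counts. In the untreated libraries it stood at 17.3, 6.72 and 12.3 CPM, from 211, 77 and 185 counts. Every irradiated library was above every untreated one. The means were 25.9 ± 2.15 CPM in irradiated and 12.1 ± 5.31 CPM in untreated glands (SD, n = 3 each), a log2 fold change of 1.10 (SE 0.33).

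The plasma cell genes proper were at the limit of detection. Mzb1 (ENSMUSG00000024353; chromosome 18, 35647267 to 35649367, minus strand) encodes a chaperone of the endoplasmic reticulum that helps IgM assembly in marginal zone B cells and plasma cells. It had 5, 5 and 9 counts in the irradiated libraries and 3, 1 and 3 in the untreated ones, which is 0.332 to 0.776 CPM against 0.0873 to 0.246 CPM. The irradiated libraries were all higher, as for 10.6% of all genes tested, but on 9 or fewer counts each. Mzb1 shares exon bases on its own strand with SPATA24, so that some of its reads may not have been assigned. Tnfrsf17 (ENSMUSG00000022496; chromosome 16, 11313812 to 11320074, plus strand) encodes BCMA, the receptor through which plasma cells receive survival signals. It had 2, 1 and 1 counts in the irradiated libraries and 0, 0 and 3 in the untreated ones. No difference was detectable at this depth, where the 2 counts of 0 allow up to 0.246 and 0.262 CPM in untreated replicates 1 and 2. Untreated replicate 1, with the highest Igha and Jchain, thus had 0 counts of Tnfrsf17 and 3 of Mzb1.

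Pigr (ENSMUSG00000026417; chromosome 1, 130826684 to 130852249, plus strand) was the most abundant of the 7 genes. It had 90.6, 71.8 and 180.2 CPM in irradiated replicates 1, 2 and 3, from 1363, 598 and 2091 counts. The untreated libraries had 235.9, 164.5 and 218.3 CPM, from 2872, 1885 and 3278 counts. Irradiated replicates 1 and 2 lay below all untreated libraries, while irradiated replicate 3 lay above untreated replicate 2, so the groups overlapped. The means were 114.2 ± 57.9 CPM in irradiated and 206.2 ± 37.2 CPM in untreated glands (SD, n = 3 each), a log2 fold change of -0.85 (SE 0.42). Without irradiated replicate 3 it was -1.35 (SE 0.17), and without irradiated replicate 2, the library that stood apart in its read statistics, it was -0.60 (SE 0.41).

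**Figure D1:**
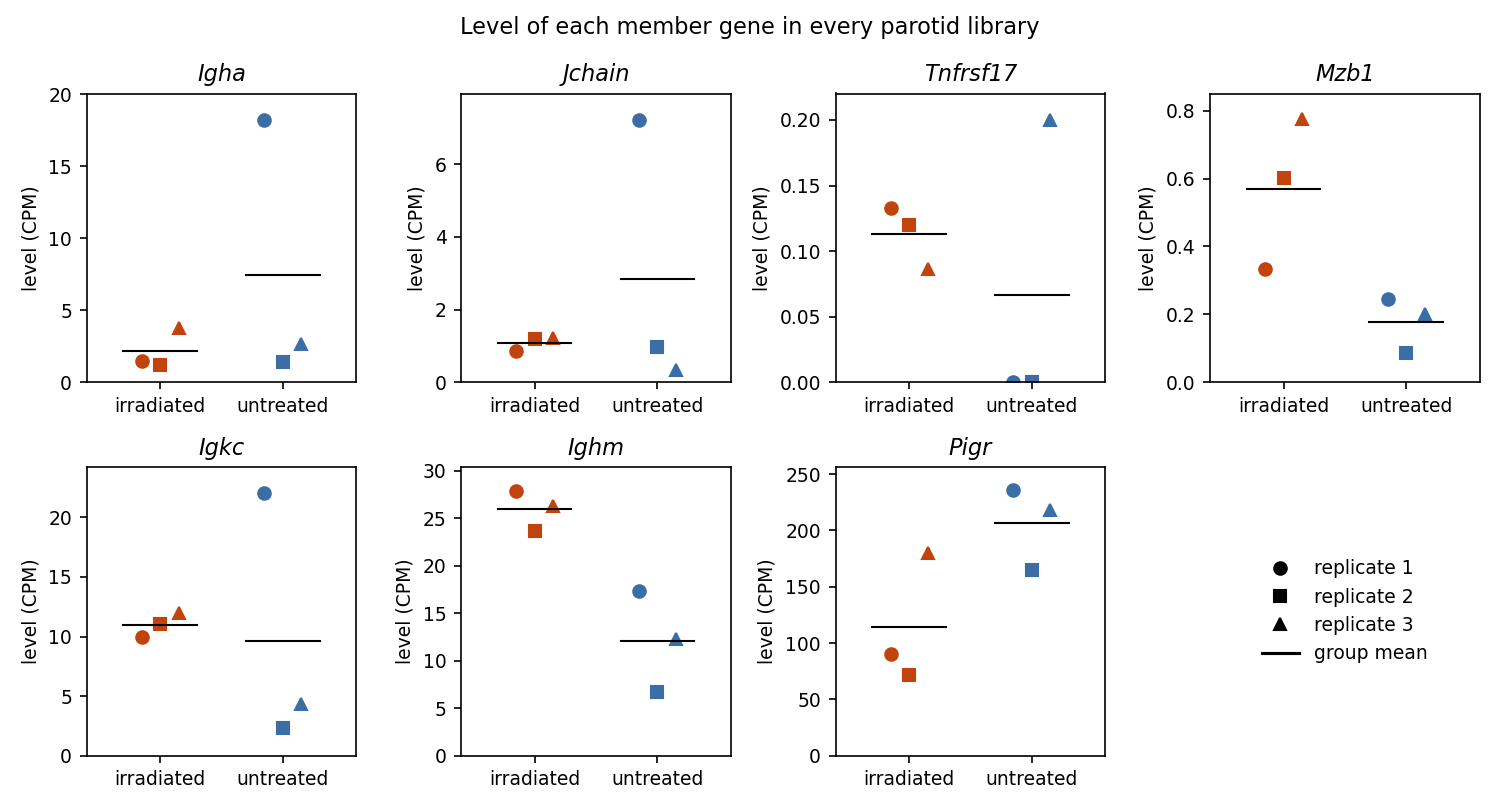
Level in CPM (linear axes from 0) of each of the 7 genes, with 1 point per library, the marker giving the replicate and the line the group mean. Untreated replicate 1 stands alone at 18.2 CPM of Igha and 7.23 CPM of Jchain, the irradiated libraries of Ighm all lie above the untreated ones, and the groups overlap for Pigr.

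Of the 7 genes, 5 had enough counts to enter the fit across all genes and 2, Mzb1 and Tnfrsf17, did not. Over 12885 genes, edgeR (quasi-likelihood, Benjamini-Hochberg adjusted p under 0.05) called 84 genes higher in irradiated glands, 0.652% of those tested, and 45 lower, 0.349%, which is 1.00% in either direction. Scaled by library totals alone, 259 were higher and 22 lower, with the median log2 fold change of all genes at 0.14 in place of -0.01. None of the 5 genes was called by edgeR, and DESeq2 called 1, Ighm. An unadjusted edgeR p under 0.05 was reached by 1 of the 5 and by 1929 of the 12885 genes. Nothing is read from these counts. Ranges did not overlap, with irradiated libraries higher, for 1 of the 5, Ighm, and for 10.6% of all genes tested. The same held for Mzb1, which was not tested.

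**Figure D2:**
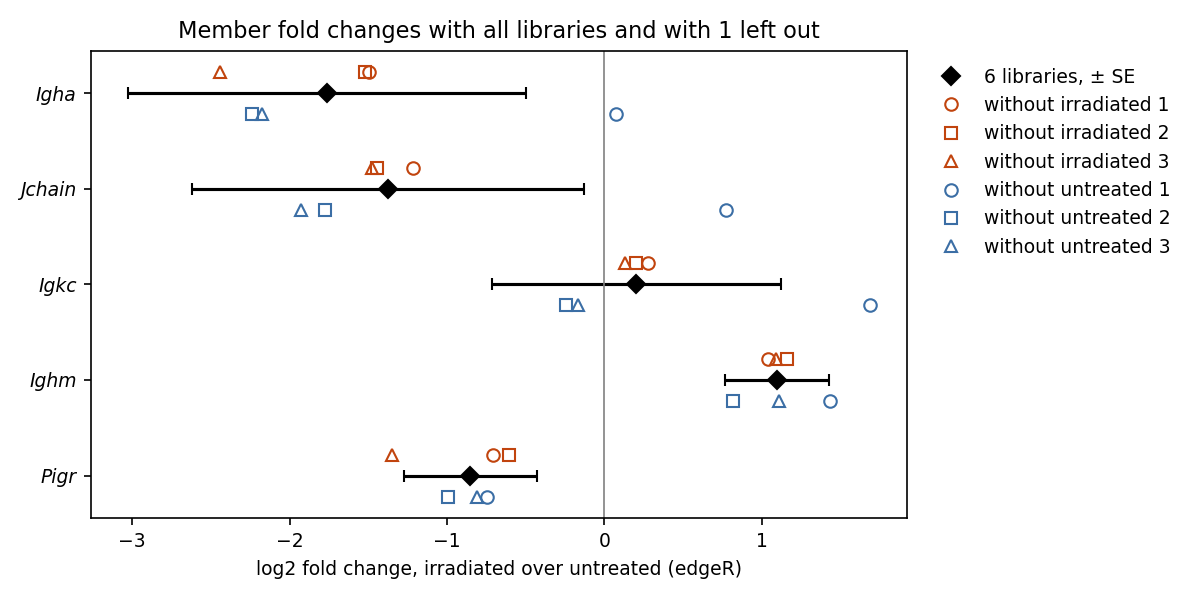
Log2 fold change, irradiated over untreated, of the 5 genes that entered the fit, with all 6 libraries (diamonds, ± SE) and with 1 library left out (open markers). Leaving out untreated replicate 1 moves Igha from -1.76 to 0.08, Jchain from -1.38 to 0.77 and Igkc from 0.20 to 1.68, while Ighm stays between 0.82 and 1.43 and Pigr between -1.35 and -0.60.

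To compare the genes with each other, levels were divided by exon length, as CPM per kilobase. In irradiated glands Pigr led with 28.4 ± 14.4 CPM per kilobase, followed by Igkc with 20.7 ± 1.89, Ighm with 13.8 ± 1.14, Igha with 0.806 ± 0.535, Mzb1 with 0.469 ± 0.184, Jchain with 0.433 ± 0.0779 and Tnfrsf17 with 0.139 ± 0.0296 (SD, n = 3). Ranges over the irradiated libraries overlapped between Pigr and Igkc, between Igha and Mzb1, and between Mzb1 and Jchain. In untreated glands the order was Pigr with 51.2 ± 9.24 CPM per kilobase, Igkc with 18.0 ± 20.4, Ighm with 6.43 ± 2.81, Igha with 2.79 ± 3.51, Jchain with 1.13 ± 1.51, Mzb1 with 0.146 ± 0.0673 and Tnfrsf17 with 0.0817 ± 0.141 (SD, n = 3). Every neighbouring pair overlapped in the untreated libraries. Exon lengths were the union of all annotated exons, which for Jchain includes a retained intron and lowers its value.

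The make-up of the heavy chains differed between the libraries. Igha made up 3.09% (95% exact binomial interval 1.95 to 4.64), 2.96% (1.43 to 5.37) and 7.69% (5.64 to 10.2) of the counts of the 8 heavy chain constant genes in irradiated replicates 1, 2 and 3. In untreated replicates 1, 2 and 3 it made up 39.6% (35.5 to 43.8), 16.0% (9.43 to 24.7) and 13.6% (9.90 to 18.1). Each irradiated library was below each untreated one in this share, also without untreated replicate 1. The counts behind the shares were 712, 338 and 572 in the irradiated libraries and 561, 100 and 294 in the untreated ones, so a share moves with Ighm and Ighd as well as with Igha. These intervals cover counting error only.

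Ighm and Ighd together held 95.4%, 92.9% and 91.3% of heavy chain counts in the irradiated libraries, against 54.4%, 84.0% and 84.0% in the untreated ones. Ighd, the IgD constant gene of naive B cells, had 259, 117 and 217 counts in irradiated and 94, 7 and 62 in untreated libraries. It stood at 2.00 (SE 0.72) on the log2 scale, where edgeR gave an adjusted p of 0.326, and it was called without untreated replicate 2 at a log2 fold change of 1.51. Within Ighm plus Ighd, the Ighd share was 38.1%, 37.3% and 41.6% in irradiated libraries and 30.8%, 8.33% (3.42 to 16.4) and 25.1% in untreated libraries. The IgG constant genes Ighg1, Ighg2b, Ighg2c and Ighg3 together had 11, 14 and 6 counts in irradiated and 34, 0 and 6 in untreated libraries. Untreated replicate 1 therefore held the most IgG as well as the most IgA, with 12 counts of Ighg1 and 11 of Ighg2b. Ighe had 1 count in all, in untreated replicate 3.

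**Figure D3:**
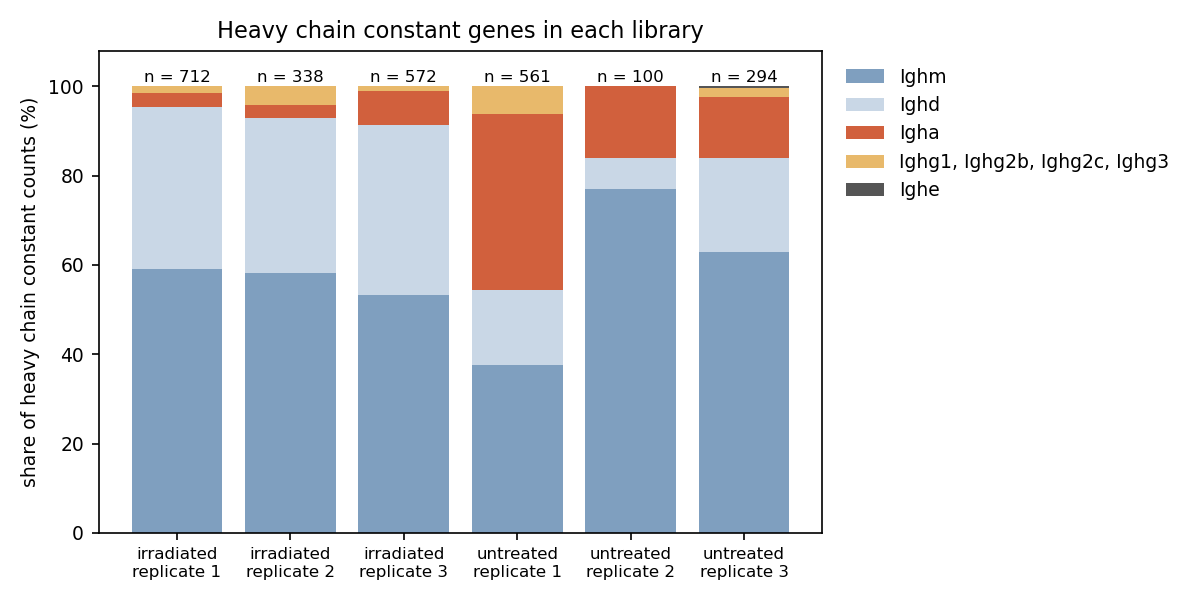
Share of the counts of the 8 heavy chain constant genes held by Ighm, Ighd, Igha, the IgG genes and Ighe in each library, with n the number of counts. Igha takes 2.96% to 7.69% in the irradiated libraries and 13.6% to 39.6% in the untreated ones.

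Among light chains, the lambda constant genes Iglc1, Iglc2, Iglc3 and Iglc4 held 16.2%, 13.2% and 5.44% of light chain constant counts in the irradiated libraries, from 29, 14 and 8 counts. In untreated replicates 1 and 3 they held 1.82% and 4.41%, from 5 and 3 counts. Untreated replicate 2 had 0 of 27, with an exact 95% binomial interval of 0% to 12.8%. The remaining light chain counts were Igkc. The exact intervals, which cover counting error only, were 11.1% to 22.4%, 7.41% to 21.2% and 2.38% to 10.4% in irradiated replicates 1, 2 and 3, against 0.595% to 4.21% in untreated replicate 1 and 0.919% to 12.4% in untreated replicate 3. Those of irradiated replicates 1 and 2 lay above that of untreated replicate 1, and the other pairs among these 5 libraries across groups overlapped.

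Variable segments show which heavy and light chain genes the antibody transcripts used. The ends of the heavy and kappa segments with the most counts over all libraries are given because untreated replicate 1 held most of the reads of both. They are reference sequences of GENCODE release M21 (C57BL/6J genome, build mm10), 5′ to 3′ on the coding strand, not reads of these FVB mice, and capitals mark the codons for the last tyrosine pair and the conserved cysteine before the junction.
Ighv7-3, chr12:114153180-114153299, minus strand: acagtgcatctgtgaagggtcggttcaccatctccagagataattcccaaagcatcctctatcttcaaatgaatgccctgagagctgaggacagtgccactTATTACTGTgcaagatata
Igkv1-117, chr6:68121708-68121827, plus strand: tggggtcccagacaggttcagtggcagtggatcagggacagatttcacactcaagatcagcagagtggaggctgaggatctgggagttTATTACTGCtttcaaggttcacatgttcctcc

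Ighv7-3 had 0 counts in each irradiated library and 16, 0 and 0 in untreated replicates 1, 2 and 3. Igkv1-117 had 2, 4 and 6 counts in the irradiated libraries and 33, 0 and 6 in the untreated ones. Both were thus highest in the library with the highest Igha and Jchain. Igkv10-96 had 4, 2 and 3 counts in irradiated and 23, 0 and 0 in untreated libraries, Ighv1-81 had 1, 0 and 0 against 9, 1 and 0, and Ighv2-2 had 1, 1 and 0 against 6, 0 and 0. Igkv14-111 was the exception among the most counted kappa segments, with 8, 3 and 10 counts in irradiated and 8, 4 and 6 in untreated libraries. Of the lambda segments, Iglv3 had 5, 0 and 5 counts against 3, 0 and 2, and Iglv1 and Iglv2 had 2 counts each over all libraries.

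The 160 kappa segments together had 54, 68 and 63 counts in irradiated replicates 1, 2 and 3, spread over 27, 38 and 29 segments. In untreated replicates 1, 2 and 3 they had 115, 10 and 38 counts over 20, 7 and 21 segments. Untreated replicate 1 thus had the most counts, on fewer segments than any irradiated library. Its leading segment held 28.7% of its kappa counts (95% exact binomial interval 20.6 to 37.9), against 14.8% (6.62 to 27.1), 10.3% (4.24 to 20.1) and 15.9% (7.88 to 27.3) for the leading segments of the irradiated libraries. The leading segments of untreated replicates 2 and 3 held 40.0% (12.2 to 73.8) and 15.8% (6.02 to 31.3), so untreated replicate 1 was not the highest in this share, and its interval overlapped those of the other libraries except irradiated replicate 2. The 183 heavy chain segments had 13, 18 and 17 counts in irradiated and 56, 3 and 11 in untreated libraries, over 12, 14 and 11 against 17, 3 and 9 segments. The leading heavy segment held 15.4% (1.92 to 45.4), 16.7% (3.58 to 41.4) and 23.5% (6.81 to 49.9) in the irradiated libraries. In untreated replicates 1, 2 and 3 it held 28.6% (17.3 to 42.2), 33.3% (0.840 to 90.6) and 27.3% (6.02 to 61.0), and all intervals overlapped. The segments of FVB mice can differ from the reference, and mutated or non-unique reads may have gone uncounted, so these counts are partial.

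Of 18 further genes of plasma cell identity 14 were tested, and 0 were called by edgeR or DESeq2 in either direction. An unadjusted edgeR p under 0.05 was reached by 4 of the 14, and by 1929 of all 12885 genes tested. The median log2 fold change of the list was 0.14, against -0.01 over all genes tested. The most abundant, the secretory transcription factors Xbp1 and Bhlha15, which acinar cells also use, stood at 348.5 ± 83.2 and 321.0 ± 25.1 CPM in irradiated glands and 422.2 ± 41.9 and 384.7 ± 21.4 CPM in untreated glands (SD, n = 3). Prdm1, the transcription factor that drives plasma cell differentiation, had 18, 5 and 15 counts in irradiated and 18, 9 and 6 in untreated libraries. Its highest level was in untreated replicate 1, at 1.48 CPM, close to the 1.29 CPM of irradiated replicate 3. Slamf7, a surface receptor of plasma cells, had 14, 8 and 7 counts in irradiated and 4, 0 and 3 in untreated libraries, and Pou2af1, a coactivator of B cells and plasma cells, had 42, 22 and 35 against 17, 0 and 16. These 3 were picked with their values in view, and Slamf7 was not tested. For Slamf7 and Pou2af1 untreated replicate 1 lay below each irradiated library, unlike for Igha and Jchain. The list went both ways in this. Irf4, Cd38, Tnfrsf13b, Zbp1 and Cd93 also lay below each irradiated library there, while Xbp1, Bhlha15, Ell2 and Eaf2 were highest in untreated replicate 1, like Prdm1. Of 18 genes of antibody folding and secretion 17 were tested, 0 were called by either tool and 3 had an unadjusted p under 0.05, with a median log2 fold change of -0.06. Hspa5, the main chaperone of the endoplasmic reticulum, had 0.10 (SE 0.12) on the log2 scale and Herpud1, a factor of protein degradation there, had -0.40 (SE 0.15).

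Among 26 genes of class switching, homing and survival signals 16 were tested, 2 rose and 0 fell in irradiated glands. Vcam1, an adhesion molecule that binds lymphocyte integrins, rose to 8.19 ± 1.85 CPM in irradiated glands, against 3.66 ± 1.25 CPM in untreated glands (SD, n = 3), or 1.15 (SE 0.25) on the log2 scale, at an edgeR adjusted p of 0.0312. Tnfrsf13c, the BAFF receptor of B cells, rose by 2.95 (SE 0.67) on the log2 scale with an edgeR adjusted p of 0.035, on 17, 13 and 20 counts in irradiated and 4, 0 and 3 in untreated libraries. The Vcam1 call was lost without irradiated replicate 1 or 2 or untreated replicate 2 or 3, at log2 fold changes of 0.97 to 1.46 over the 6 sets that leave out 1 library. The Tnfrsf13c call was lost without any of the 6 libraries, at 2.44 to 3.59. Ccl28, the chemokine of mucosal and glandular epithelium that attracts IgA plasma cells, had 73.2 ± 15.0 CPM in irradiated and 67.8 ± 9.68 CPM in untreated glands, a log2 fold change of 0.11 (SE 0.15). The survival factors Tnfsf13 and Tnfsf13b, also called APRIL and BAFF, had log2 fold changes of 0.26 (SE 0.48) and 0.45 (SE 0.48). Ccl28, Tnfsf13 and Tnfsf13b were named after their values were seen. The median of the list was 0.44.

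Of 30 genes of IgA transport and its inducers 29 were tested, 1 rose and 0 fell. Il4ra, a chain of the interleukin 4 receptor, whose signal is known to raise the receptor in human epithelial cells, rose to 11.5 ± 1.61 CPM in irradiated glands, against 5.42 ± 1.88 CPM in untreated glands (SD, n = 3). On the log2 scale this was 1.08 (SE 0.22), at an edgeR adjusted p of 0.0187, and the call was lost without irradiated replicate 1 or 2 or untreated replicate 1 or 3, at 0.93 to 1.39 over the 6 sets. The median of the list was 0.03. Rab3d and Rab17, small GTPases of vesicle traffic named after their values were seen, had log2 fold changes of -0.17 (SE 0.12) and -0.14 (SE 0.16).

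The Pigr promoter is shown because Pigr was the member of the epithelium and 2 factors known to bind an E-box of the human gene, Usf1 and Usf2, were on the list. The window runs from 250 bases before to 50 after the RefSeq start (GRCm38.p6), 5′ to 3′ on the plus strand, with the palindrome CACGTG in capitals.
Pigr, chr1:130826434-130826733: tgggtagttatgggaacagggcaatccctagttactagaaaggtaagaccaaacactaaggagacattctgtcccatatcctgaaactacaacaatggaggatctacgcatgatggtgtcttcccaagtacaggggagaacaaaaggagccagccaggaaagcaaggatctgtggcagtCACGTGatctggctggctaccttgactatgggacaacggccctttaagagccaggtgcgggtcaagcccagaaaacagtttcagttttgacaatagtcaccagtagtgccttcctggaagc

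CACGTG occurred 1 time, starting 71 bases before the start, and 7.15% of 32851 promoter windows of the same length hold it. The interferon-type repeat, GAAA followed by 2 bases of any kind and GAAA again, searched on both strands, had no match in the window and is held by 3.44% of windows. Only this exact string was searched, so an interferon-type element with a mismatch would have been missed. Of the 7 genes 3 were in the promoter table. Usf1 and Usf2 had log2 fold changes of -0.26 (SE 0.12) and -0.38 (SE 0.15), with edgeR adjusted p values of 0.286 and 0.208, and for both the irradiated libraries lay below all untreated libraries, as for 10.6% of all genes tested. The interferon regulatory factors Irf1 and Irf2 stood at -0.08 (SE 0.19) and 0.13 (SE 0.15). Usf1, Usf2, Irf1 and Irf2 were named after their values were seen.

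Beside the Ighm and Ighd values stand those of markers of other lymphoid cells, few of which passed the test, and their part in the Ighm and Ighd values was not tested. Of 16 B cell markers 14 were tested and 1 rose, Bank1, a B cell scaffold protein, with counts of 62, 27 and 53 in irradiated and 16, 2 and 13 in untreated libraries. It rose by 2.32 (SE 0.45) on the log2 scale, at an edgeR adjusted p of 0.0151, and the call was lost without irradiated replicate 1, at 1.88 to 2.84 over the 6 sets that leave out 1 library. The median log2 fold change of the list was 1.81, and 12 of the 14 had irradiated libraries above all untreated ones, as had 10.6% of all genes. The summed level was 169.1 to 188.2 CPM in irradiated and 114.8 to 152.5 CPM in untreated libraries, much of it from Cd74 and Ebf1, which other cells also express. Without these 2, a choice made after seeing the data, it was 65.2, 63.0 and 59.5 CPM in irradiated replicates 1, 2 and 3 and 31.3, 3.05 and 19.8 CPM in untreated replicates 1, 2 and 3. Untreated replicate 2 thus had the lowest B cell marker level as well as the lowest Ighm, Ighd and Igkc, and 5 of the 16 markers were at 0 there.

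Of 15 T cell markers, all tested, 2 rose, Cd5 and Cd8b1, with a list median of 1.71 and summed levels of 51.2 to 69.5 CPM in irradiated and 2.79 to 24.6 CPM in untreated libraries. Cd5, an inhibitory receptor of T cells and some B cells, rose by 2.95 (SE 0.52) on the log2 scale, at an edgeR adjusted p of 0.00787, a call that was lost with limma-voom and without robust shrinkage. Cd8b1, a chain of the CD8 coreceptor, stood at 2.76 (SE 0.55) with an edgeR adjusted p of 0.0177, and its call was lost without irradiated replicate 2 or untreated replicate 1 or 2, at 2.34 to 3.57 over the 6 sets. Of 11 markers of lymph node stroma 4 were tested and 1 rose, Cxcl13, the chemokine that attracts B cells, by 2.85 (SE 0.29) on the log2 scale with an edgeR adjusted p of 8.86e-06. Glycam1, a product of the high endothelial venules of lymph nodes named after its values were seen, had 918, 442 and 562 counts in irradiated and 405, 6 and 337 in untreated libraries. It was not called, at 1.52 (SE 1.09) on the log2 scale with an edgeR adjusted p of 0.611. The summed level of the stroma list was 135.2 to 144.2 CPM in irradiated and 47.1 to 91.2 CPM in untreated libraries. Most of it came from Glycam1, Clu and Ltbr, none of which was called. None of these lists set untreated replicate 1 apart the way Igha and Jchain did.

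**Figure D4:**
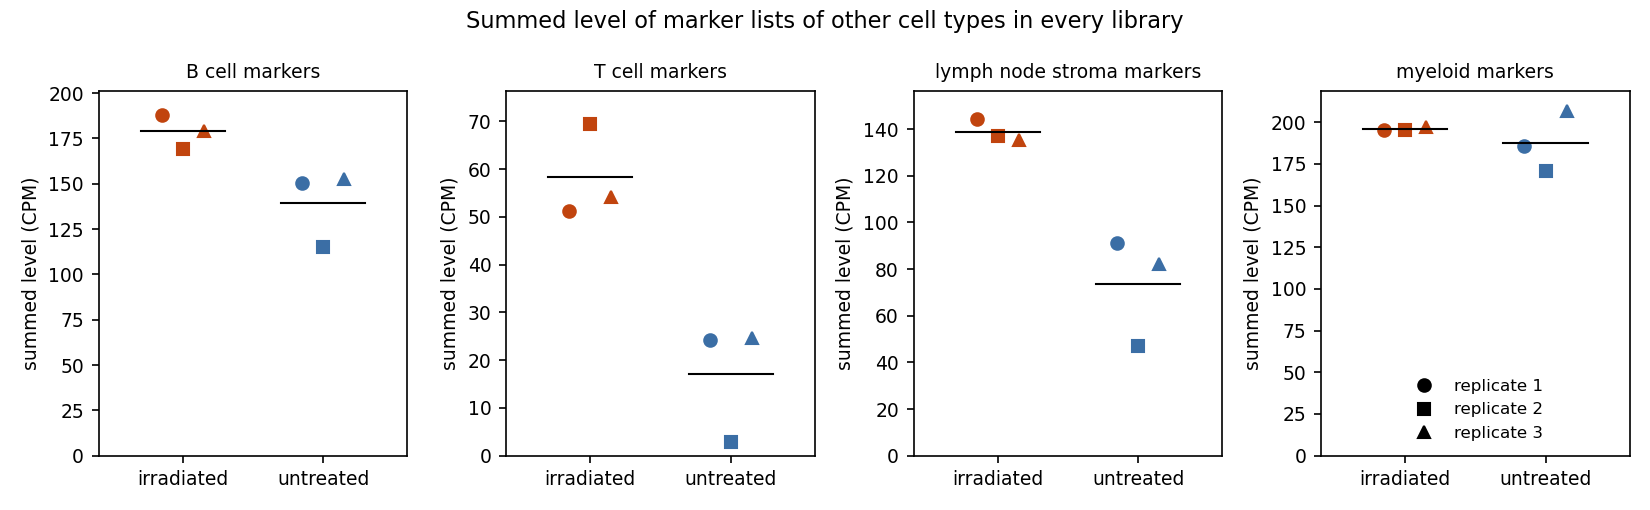
Summed CPM of 4 marker lists in each library (linear axes from 0), with 1 point per library, the marker giving the replicate and the line the group mean. Irradiated libraries lie above untreated ones for B cell, T cell and lymph node stroma markers, untreated replicate 2 is lowest in all 4 lists, and myeloid markers overlap.

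The remaining lists held 1 called gene. Of 9 tested acinar markers Car6, a secreted carbonic anhydrase, fell by 0.79 (SE 0.18) on the log2 scale, at an edgeR adjusted p of 0.0329. With 1 library left out it stood at -1.02 to -0.67, and the call held only without irradiated replicate 3. Irradiated replicate 2 stood apart for Smgc and Prol1 of the acinar list. Smgc had 377 counts there and 0 or 1 in each other library, and Prol1 had 3678 against 380 to 601. Both genes were named after their values were seen. Smgc did not enter the fit, Prol1 was not called, and the cause was not tested. EdgeR called 0 of 12 tested myeloid, 0 of 12 tested duct and 0 of 10 tested fat and muscle markers, where DESeq2 called 0, 1 and 0. An unadjusted edgeR p under 0.05 was reached by 2, 4 and 1 of them, and by 1929 of all 12885 genes tested. In the myeloid list, Lyz2 and Csf1r had log2 fold changes of 0.43 (SE 0.15) and -0.29 (SE 0.12). In the duct list, Klk1 and Krt18 had log2 fold changes of -0.19 (SE 0.14) and -0.53 (SE 0.13), and in fat and muscle Myh4 and Acta1 had -0.55 (SE 0.52) and -0.78 (SE 0.43).

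A search for genes like Jchain and Pigr covered 11495 tested genes with a mean of at least 1 CPM. It left out the 7 members and predicted genes. Of the genes searched, those whose log2 CPM followed Jchain most closely over the 6 libraries were Ostf1, Rgmb, Aptx, Zfpm1 and Ubxn8, with Pearson r of 0.98 to 0.99. Their own ranges were narrow, as for Ostf1 with 16.5, 16.9 and 17.5 CPM in irradiated and 20.9, 16.8 and 14.8 CPM in untreated libraries. For Pigr they were Phax, Syngr2, Ppp1r1b, Nop53 and Mfsd10, with r of 0.99 to 1.00. Ppp1r1b, a phosphatase inhibitor, had 87.3, 69.1 and 127.8 CPM in irradiated and 138.8, 121.1 and 137.8 CPM in untreated libraries, with the lowest value in irradiated replicate 2 as for Pigr. An r over 0.9 was reached by 65 genes for Jchain and 221 for Pigr, and all points share 6 libraries, so these are descriptions only.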

How the data were processed

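The authors deposited a count table for each library, with whole numbers of reads for Ensembl mouse genes. Per the labels' protocols, total RNA from parotid gland went into a stranded total RNA kit. Bcl2fastq, HISAT2, HTSeq and build mm10 are named in the submitters' processing notes, with versions, annotation release and strand setting not given in the sources used here. Rows naming no gene held 32.45% to 40.72% of reads and were left out, among them reads aligned to more than 1 place (13.32% to 18.44%) and reads matching several genes (8.217% to 9.826%), so immunoglobulin genes may be undercounted. Symbols and exons came from GENCODE M21 (GRCm38), which matched 52403 of 52636 genes.

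Counts were tested with edgeR 4.0.16 in R 4.3.3 (quasi-likelihood, robust shrinkage, TMM, filterByExpr with minimum count 10) over 2 groups of 3, with Benjamini-Hochberg adjustment at 0.05. The procedure was tested on simulated data. SEs were taken from each fold change divided by the square root of its F statistic. Likeness used log2 CPM with a prior count of 2. Alternatives were DESeq2 1.42.0, limma-voom (limma 3.58.1), other scaling, no filter, no robust shrinkage, the replicate number as a block and leaving out each library. No 2 libraries agreed within sampling noise (chi-square per degree of freedom at least 13.5). Members and lists were chosen with earlier results of these data known. Genes of a list are named if called (up to 4), otherwise the 2 most abundant; others are marked as named after their values were seen.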

Additional observations from a re-analysis of the deposited data

How the results depend on the processing

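The number of genes called, 129, was 127 with DESeq2 size factors and 155 with DESeq2. It was 281 with library totals alone, 518 with no filter on low counts, 25 with limma-voom, 26 without robust shrinkage, 53 with the replicate block, and 45 to 155 when 1 library was left out. Of the 7 members, 0 were called by edgeR with all libraries; 1, Ighm, was called with no filter, with DESeq2 and with the replicate block. Leaving out 1 library gave 0 to 2: Ighm without untreated replicate 1 or 2, Igkc without untreated replicate 1, and Pigr, lower, without irradiated replicate 3. Deviations from the group mean correlated at 0.02, -0.11 and -0.11 between same-numbered libraries and at -0.03 to 0.12 between differently numbered ones. With 3 libraries per group these values cannot decide whether the numbers pair the samples. Igha, Jchain, Ighm, Igkc and Pigr kept their sign in the 7 settings with all 6 libraries, scaling included, but the log2 fold change of Jchain, -1.38, was -0.22 with limma-voom and -0.66 with the replicate block, that of Igha, -1.76, was -1.06 and -1.29, and that of Igkc, 0.20, was 0.84 and 0.64, and 0.34 with library totals alone; Igha and Jchain changed sign without untreated replicate 1 and Igkc without untreated replicate 2 or 3, and the cause was not tested. Among the lists, no filter raised the calls to 11 for B cells and 12 for T cells, and limma-voom gave 0 for each. The calls of Vcam1, Tnfrsf13c, Il4ra, Bank1, Cd5, Cd8b1 and Car6 were lost with limma-voom and without robust shrinkage, and that of Cxcl13 was not; the replicate block also ended the calls of Vcam1, Tnfrsf13c, Cd8b1 and Car6; these alternatives for list genes were chosen after seeing the data. Depth limits Mzb1 and Tnfrsf17, with 26 and 7 counts in all.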
